A study of Mus musculus with 10 samples.

Results

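The genes described here are 42 genes that build the dermis of mouse skin or mark the fibroblasts that make it, chosen by gene symbol. They comprise 7 small leucine-rich proteoglycans, versican with the 3 hyaluronan synthases, 7 proteins of elastin and its microfibrils, 5 fibulins, 4 proteins that cross-link elastin and collagen or process procollagen, 8 adhesive and matricellular glycoproteins, 5 fibroblast surface proteins and 2 contractile proteins. All 42 were among the 20611 symbols listed for each mouse, and all 42 had enough reads to be among the 14861 genes tested.

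Whole-skin mRNA was sequenced from 5 Klk6+ and 5 WT mice, with 1 library for each animal and with 3 males (replicates 1 to 3) and 2 females (replicates 4 and 5) in each genotype. Klk6+ mice carried 2 transgenes, Tetos-Klk6, which encodes murine Klk6 with a Myc/His tag at its C-terminus, and K5-tTA, a Tet-off transactivator under the bovine keratin 5 promoter. The pair keeps Klk6, a secreted serine protease, switched on in keratinocytes and some other stratified squamous epithelia as long as doxycycline is absent. WT mice were littermates with neither transgene or with only 1 of them, and neither transgene alone switches on the Klk6 transgene. The labels do not say which WT mouse was which. Both lines were backcrossed to C57BL/6 and mice of generation F4 or later were used. The matings that gave Klk6+ mice were made under doxycycline. The labels state that Klk6+ mice received doxycycline chow again at 10 to 11 weeks of age, shortly before they would have stopped feeding and become moribund, and that tissue was collected at 14 to 16 weeks. From the labels it is not clear whether, or for how long, the sequenced mice were back on doxycycline when their skin was taken. For the WT mice the labels record no such return to doxycycline chow, so as labelled it cannot be told apart from genotype. The labels give no body site, litter or sequencing batch.

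Klk6 stood at 10293 to 14773 CPM in the Klk6+ libraries and at 12.7 to 26.5 CPM in the WT libraries, where CPM is the read count scaled to library size and composition. Total counts ranged from 26521019 to 39796511 in Klk6+ and from 32798416 to 41970272 in WT, so that 1 read was worth 0.0230 to 0.0373 CPM. Values of single mice are given in the order of replicates 1 to 5, and levels of different genes are compared below only in FPKM, which also divides by transcript length.

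Dermal fibroblasts secrete most of the connective tissue of skin. Fibrillin microfibrils form the scaffold on which elastin is deposited with the help of fibulins and is then cross-linked by lysyl oxidases, while decorin and related small proteoglycans bind collagen fibrils and set their spacing. Versican and hyaluronan fill the space between the fibres with a hydrated gel, and matricellular proteins such as tenascin-C are scarce in resting skin and abundant in wounds.

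Most of the 42 genes were lower in Klk6+ skin. A gene was called when its adjusted p was below 0.05 (edgeR quasi-likelihood test with sex as a covariate, Benjamini-Hochberg adjustment over all genes tested). By this rule 32 of the 42 genes fell, where 35.1% of all genes tested fell, and 4 rose (Tnc, Has3, Fbn2 and Has2), where 37.7% of all genes tested rose. The other 6, Vcan, Postn, Thbs1, Thbs2, Fbln5 and Has1, were not called. The median log2 fold change was -1.01 over the 42 genes and 0.04 over all genes tested. Of the 42 genes, 21 were called and lower by at least 2-fold, where 20.5% of all genes tested were, 10 by at least 4-fold, where 8.07% were, and Ogn and Fn1 by at least 8-fold, where 2.54% were.

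Separation between the mice was common in these data and is read against that background. In 23 of the 42 genes the CPM of the 5 Klk6+ and the 5 WT mice did not overlap, against 57.0% of all genes tested. In 21 of them all Klk6+ mice were lower, against 27.0% of all genes tested, and in the other 2, Tnc and Has3, all Klk6+ mice were higher. Summed over the 42 genes, FPKM lay between 1564 and 2129.8 in Klk6+ mice and between 3918 and 5867 in WT mice. Much of this sum came from 2 genes, Sparc and Dcn. Sparc had 234 to 554 FPKM in Klk6+ and 507 to 2697 FPKM in WT. Dcn had 322 to 502 FPKM in Klk6+ and 909 to 1275 FPKM in WT. Skin was sequenced as a whole, so fewer cells of a type and less RNA per cell cannot be told apart.

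**Figure D1:**
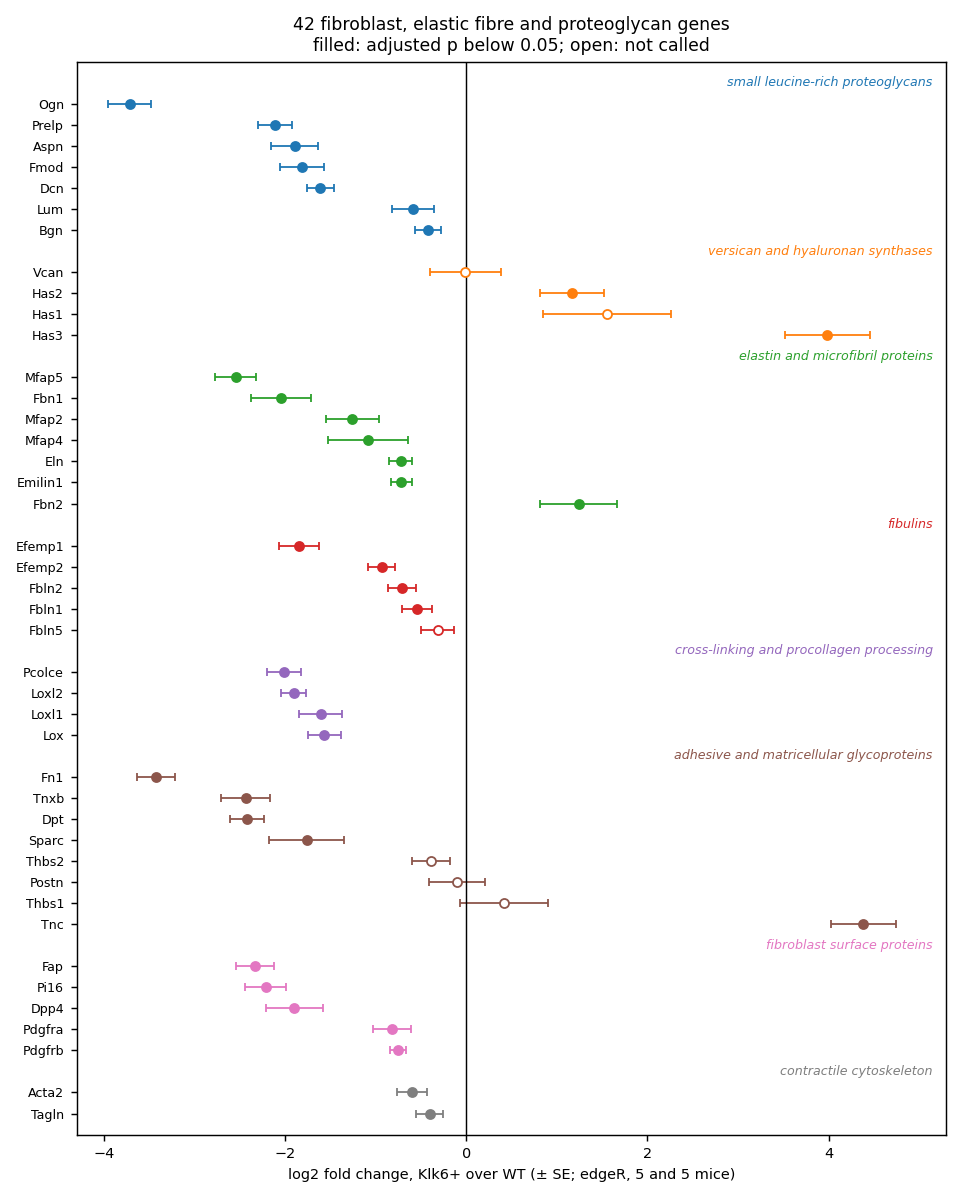
Log2 fold change, Klk6+ over WT, of the 42 genes with its standard error (horizontal axis; edgeR, 5 Klk6+ and 5 WT mice), grouped by role, with filled points for genes called at an adjusted p below 0.05. The 4 called genes right of 0 are Tnc at 4.38, Has3 at 3.98, Fbn2 at 1.24 and Has2 at 1.17, while Ogn at -3.71 and Fn1 at -3.43 lie farthest to the left.

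All 7 small leucine-rich proteoglycans fell, with a median log2 fold change of -1.81. The proteins carry leucine-rich repeats that clasp collagen fibrils. Ogn, which encodes osteoglycin, stood at 18.2, 20.3, 24.7, 17.1 and 37.97 CPM in the Klk6+ mice and at 228, 229, 294, 342 and 496 CPM in the WT mice. Every Klk6+ mouse was far below the lowest WT mouse, and within each genotype the female numbered 5 was the highest. The Klk6+ mean, 23.6 ± 8.53 CPM, was 7.44% of the WT mean, 318 ± 110.3 CPM (SD, n = 5 each), and the log2 fold change was -3.71 ± 0.24 (SE; edgeR adjusted p = 8.28e-07), the largest decrease of the 42 genes.

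Dcn encodes decorin, the most abundant of these proteoglycans in both genotypes by FPKM (median 369.8 in Klk6+ and 1142 in WT). It had 612, 630.4, 712, 684 and 922 CPM in the Klk6+ mice and 2108, 2249, 2439.5, 1705 and 2328 CPM in the WT mice. No Klk6+ mouse reached the lowest WT mouse, and the spread within each genotype was small. Its log2 fold change was -1.61 ± 0.15 (edgeR adjusted p = 6.11e-06).

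Lum encodes lumican, which lies next to Dcn on chromosome 10 with a gap of 46.98 kb. It had 345, 274, 230.4, 352 and 138 CPM in the Klk6+ mice and 478, 418, 369.7, 324 and 422 CPM in the WT mice. The groups overlapped, since Klk6+ 1 and Klk6+ 4 were above the lowest WT mouse, and Klk6+ 5 was the lowest of all. Its log2 fold change of -0.59 ± 0.23 (edgeR adjusted p = 0.0393) was smaller than that of Dcn, and its adjusted p was between 0.0612 and 0.0734 in 4 of the 10 fits that left out 1 mouse (WT 1, WT 5, Klk6+ 2 or Klk6+ 3), while without Klk6+ 4 the log2 fold change was -0.89.

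The other 4 ranged from a small to a large decrease. Prelp, which anchors basement membranes to the tissue beneath, had a log2 fold change of -2.11 ± 0.19, Aspn, encoding asporin, -1.89 ± 0.26, and Fmod, encoding fibromodulin, -1.81 ± 0.25, each without overlap between the genotypes (edgeR adjusted p = 4.47e-06, 8.32e-05 and 8.31e-05). For Bgn, encoding biglycan, it was -0.42 ± 0.14 (edgeR adjusted p = 0.02), and the groups overlapped, at 246 to 388 CPM in Klk6+ and 311 to 445 CPM in WT. Prelp and Fmod are neighbours on chromosome 1, 115.8 kb apart.

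Ogn (chr13:49608046-49624501, plus strand) and Aspn (chr13:49544443-49567565, plus strand, GENCODE M21 on GRCm38) are neighbours too, with a gap of 40.48 kb, and both fell without overlap. Within a genotype the 2 genes did not rank the mice alike. Klk6+ 5 was the highest Klk6+ mouse for Ogn and the lowest for Aspn. WT 1 was the lowest WT mouse for Ogn and the highest for Aspn, and WT 5 the reverse. The 250 bases before the RefSeq start of each gene (GRCm38.p6) are shown because both neighbours were lower in Klk6+ and both windows hold the TATAAA word. The Ogn window is chr13:49607765-49608014 and the Aspn window chr13:49544193-49544442, both on the plus strand. Capitals mark TATAAA or its reverse complement; in Ogn the 2 matches, 1 on each strand, overlap and begin 229 and 227 bases before the start, and in Aspn they begin 207 and 178 bases before it.
Ogn: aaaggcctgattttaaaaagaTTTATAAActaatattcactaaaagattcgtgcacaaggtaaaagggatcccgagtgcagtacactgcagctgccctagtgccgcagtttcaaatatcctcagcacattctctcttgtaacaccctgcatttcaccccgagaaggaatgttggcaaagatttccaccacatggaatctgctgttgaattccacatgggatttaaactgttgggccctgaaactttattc
Aspn: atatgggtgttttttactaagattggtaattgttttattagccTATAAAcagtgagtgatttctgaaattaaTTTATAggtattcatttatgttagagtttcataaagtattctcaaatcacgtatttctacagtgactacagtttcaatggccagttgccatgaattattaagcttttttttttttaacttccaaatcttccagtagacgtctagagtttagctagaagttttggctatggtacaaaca

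Such windows were on hand for 26 of the 42 genes, 33 windows in all, and 5 short words were searched on both strands. TATAAA occurred in 7 of the 33 windows, belonging to Dpp4, Postn, Tnc, Aspn, Ogn and Thbs2, and in 12.4% of the 32851 windows of all genes. GGAATG, a word bound by TEAD factors, occurred in 4 windows (Dpp4, Mfap2, Ogn and Acta2) and in 12.6% of all windows. TGACTCA, bound by AP-1, occurred in 1 (Tnxb) and in 4.46% of all windows, and CCAAT in 8 and in 33.8%. The CArG box, bound by serum response factor, was in none of the 33 windows and in 1.47% of all windows. The matches are a description of these letters only.

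**Figure D2:**
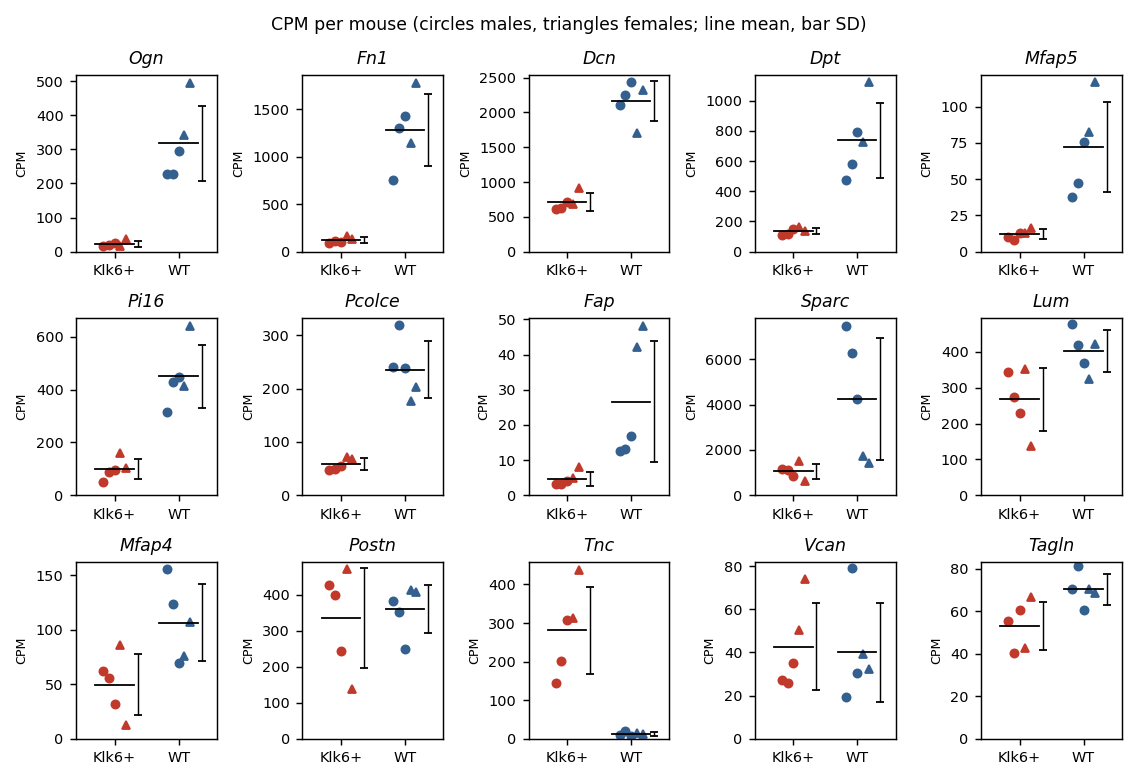
CPM (vertical axis, from 0) of 15 of the genes in each mouse, Klk6+ left of WT, with circles for the 3 males and triangles for the 2 females, a line at the mean and a bar of 1 SD. In Ogn, Fn1, Dcn, Dpt, Mfap5, Pi16, Pcolce and Fap the Klk6+ points lie below all WT points, in Tnc they lie above them, and in Sparc, Lum, Mfap4, Postn, Vcan and Tagln the genotypes overlap.

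Of 7 genes for elastin and its microfibrils, 6 fell and Fbn2 rose, with a median log2 fold change of -1.09, which was -1.69 without Klk6+ 4. Mfap5 encodes a small microfibril-associated glycoprotein that binds fibrillin. It had 9.83, 7.74, 12.8, 13.03 and 16.5 CPM in the Klk6+ mice and 37.9, 47.4, 75.7, 82.8 and 117 CPM in the WT mice. The groups did not overlap, and WT 5 was the highest. Mfap5 had the largest decrease of the group, with a log2 fold change of -2.55 ± 0.22 (edgeR adjusted p = 4.46e-06).

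Mfap2 encodes another small microfibril glycoprotein. Its CPM was 23.2, 18.5, 14.03, 31.4 and 9.87 in the Klk6+ mice and 61.5, 51.5, 42.1, 31.9 and 46.7 in the WT mice. Klk6+ 4 came close to WT 4, the lowest WT mouse, without overlap, and the log2 fold change was -1.26 ± 0.30 (edgeR adjusted p = 0.0031).

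Mfap4, which encodes a fibrinogen-like protein that binds elastin and collagen, was the most abundant gene of the group by FPKM (median 35.2 in Klk6+ and 70.3 in WT). Its CPM was 62.03, 55.6, 31.96, 86.2 and 12.8 in the Klk6+ mice and 155, 123, 69.3, 75.9 and 107 in the WT mice. Klk6+ 4 was above both WT 3 and WT 4, and Klk6+ 5 was the lowest mouse. The log2 fold change of -1.08 ± 0.44 had an edgeR adjusted p of 0.0454, which exceeded 0.05 in 7 of the 10 fits without 1 mouse (up to 0.0861 without WT 1), and without Klk6+ 4 the log2 fold change was -1.71. The Mfap4 exons share 89 bases with Mapk7 on the other strand, and the library kit does not mark strand, so reads there could belong to either gene.

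The fibrillins moved in opposite directions. Fbn1, encoding fibrillin-1, the main fibrillin of adult tissue, had a log2 fold change of -2.04 ± 0.33 (edgeR adjusted p = 0.000296), with 73.7 to 166 CPM in Klk6+ and 136 to 673 CPM in WT. WT 1 was the WT mouse that overlapped the Klk6+ range, and Fbn1 shares 2442 exon bases with Gm9913 on the other strand. Fbn2, encoding fibrillin-2, which is made mostly in development, had 4.73, 4.36, 2.82, 10.9 and 2.09 CPM in the Klk6+ mice and 1.15, 2.84, 1.26, 2.31 and 2.84 CPM in the WT mice. It was the lowest of the 42 genes by FPKM in both genotypes, and the groups overlapped, with Klk6+ 4 far above the others and Klk6+ 5 below 3 of the WT mice. Its log2 fold change was 1.24 ± 0.42 (edgeR adjusted p = 0.0225), and without Klk6+ 4 it was 0.70 (edgeR adjusted p = 0.137). The call was also lost without WT 1, WT 3 or WT 4, with log2 fold changes of 1.10, 1.12 and 1.18.

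Eln encodes tropoelastin, the soluble unit of elastin, and Emilin1 a glycoprotein found where elastin meets its microfibrils. Eln had 67.4 to 95.98 CPM in Klk6+ and 96.5 to 181 CPM in WT, without overlap, and its log2 fold change was -0.72 ± 0.13 (edgeR adjusted p = 0.000452). Emilin1 had 12.1 to 24.8 CPM in Klk6+ and 21.7 to 32.1 CPM in WT, with overlap from Klk6+ 5, and its log2 fold change was -0.72 ± 0.11 (edgeR adjusted p = 0.000229).

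Fibulins tie elastin to the microfibrils and to the cell surface. Of 5, 4 fell and Fbln5 was not called, with a median log2 fold change of -0.71. Efemp1, which encodes fibulin-3, had 22.8, 30.4, 36.96, 31.9 and 60.4 CPM in the Klk6+ mice and 76.2, 99.4, 135, 172 and 181 CPM in the WT mice. All Klk6+ mice were below all WT mice, and its log2 fold change, -1.85 ± 0.22 (edgeR adjusted p = 2.91e-05), was the largest decrease among the fibulins.

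Fbln2 encodes fibulin-2, which binds tropoelastin and fibrillin-1. Its CPM was 118, 133, 153, 156 and 164 in the Klk6+ mice and 149.9, 230.3, 178, 318 and 354 in the WT mice. WT 1 lay within the Klk6+ range and both WT females lay above all other mice, and the log2 fold change was -0.71 ± 0.16 (edgeR adjusted p = 0.00209). For Efemp2, encoding fibulin-4, which is needed for elastic fibre assembly, the log2 fold change was -0.93 ± 0.15, and for Fbln1 it was -0.54 ± 0.17 (edgeR adjusted p = 0.000257 and 0.0141). Both overlapped between the genotypes, and Efemp2 shares 173 exon bases with Mus81 on the other strand. Fbln5, encoding fibulin-5, which is also needed to organise elastic fibres, had a log2 fold change of -0.32 ± 0.18 (edgeR adjusted p = 0.139) and 38.4 to 62.8 CPM in Klk6+ against 50.1 to 90.4 CPM in WT.

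All 4 genes for cross-linking and procollagen processing fell without overlap between the genotypes, with a median log2 fold change of -1.75. Pcolce, whose product speeds up the removal of the C-terminal propeptide from procollagen, had 47.7, 49.97, 54.6, 72.5 and 68.6 CPM in the Klk6+ mice and 240.1, 319, 239, 177 and 203 CPM in the WT mice. The Klk6+ mice were all far below the lowest WT mouse, which was the female WT 4, and the log2 fold change was -2.01 ± 0.19 (edgeR adjusted p = 6.5e-06). Pcolce shares 112 exon bases with Fbxo24, so reads there are uncertain.

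Loxl1 encodes the lysyl oxidase-like enzyme that cross-links elastin. It had 27.2, 39.8, 51.5, 49.7 and 84.8 CPM in the Klk6+ mice and 87.5, 149, 143, 149 and 231 CPM in the WT mice. Klk6+ 5 lay just below WT 1, the lowest WT mouse, and the log2 fold change was -1.61 ± 0.24 (edgeR adjusted p = 0.00015). For Lox, encoding lysyl oxidase itself, it was -1.57 ± 0.18, and for Loxl2, encoding an enzyme that cross-links collagen IV and other collagens, -1.90 ± 0.14 (edgeR adjusted p = 2.86e-05 and 1.47e-06).

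Among the 8 adhesive and matricellular glycoproteins, 4 fell, Tnc rose and Postn, Thbs1 and Thbs2 were not called. The median log2 fold change was -1.07. Fn1 (chr1:71585520-71653200, minus strand, GENCODE M21 on GRCm38) encodes fibronectin, the glycoprotein to which cells attach through integrins. It had 94.8, 111, 100.05, 169 and 130.03 CPM in the Klk6+ mice and 758, 1304, 1435, 1148 and 1784 CPM in the WT mice. Every Klk6+ mouse was several-fold below WT 1, the lowest WT mouse. The Klk6+ mean of 121 ± 30.1 CPM was 9.41% of the WT mean of 1286 ± 377 CPM (SD, n = 5 each), and the log2 fold change was -3.43 ± 0.21 (edgeR adjusted p = 7.01e-07).

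Dermatopontin, encoded by Dpt, links decorin and collagen. Dpt had 113, 117, 150.1, 162 and 138 CPM in the Klk6+ mice and 474, 579, 793, 724 and 1122 CPM in the WT mice. The Klk6+ mice lay close together and below all WT mice, and the log2 fold change was -2.42 ± 0.19 (edgeR adjusted p = 2.2e-06). Tnxb encodes tenascin-X, whose loss in humans causes a form of Ehlers-Danlos syndrome with stretchable skin. Its CPM was 50.4, 81.5, 97.1, 79.9 and 178 in the Klk6+ mice and 349.6, 563, 515, 503 and 621 in the WT mice. Klk6+ 5 was the highest Klk6+ mouse and still below WT 1, and the log2 fold change was -2.43 ± 0.27 (edgeR adjusted p = 2.14e-05).

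Sparc, encoding osteonectin, a collagen-binding protein, was the most abundant of the 42 genes by FPKM in both genotypes (median 379 in Klk6+ and 1485 in WT). It had 1139.9, 1114, 855, 1499.5 and 646 CPM in the Klk6+ mice and 7479.9, 6294, 4252, 1716 and 1438 CPM in the WT mice. The 3 WT males were above all other mice, while WT 5 was below Klk6+ 4 and WT 4 not far above it, so the genotypes overlapped. Its log2 fold change was -1.76 ± 0.41 (edgeR adjusted p = 0.0031).

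Tnc (chr4:63959785-64047015, minus strand, GENCODE M21 on GRCm38) encodes tenascin-C, the matricellular glycoprotein of wounds and inflamed tissue. It had 146, 203, 308, 314 and 438 CPM in the Klk6+ mice and 9.97, 20.7, 7.24, 15.9 and 11.2 CPM in the WT mice. All Klk6+ mice were above all WT mice, with the highest values in the females. The log2 fold change of 4.38 ± 0.36 (edgeR adjusted p = 2.86e-06) was the largest increase of the 42 genes, and by FPKM Tnc was number 8 among them in Klk6+ (median 37.6) and number 38 in WT (median 1.39). The 250 bases before its RefSeq start (chr4:64047016-64047265, minus strand, GRCm38.p6) are shown because Tnc rose the most of the 42 genes and the window holds TATAAA, in capitals, beginning 126 bases before the start.
Tnc: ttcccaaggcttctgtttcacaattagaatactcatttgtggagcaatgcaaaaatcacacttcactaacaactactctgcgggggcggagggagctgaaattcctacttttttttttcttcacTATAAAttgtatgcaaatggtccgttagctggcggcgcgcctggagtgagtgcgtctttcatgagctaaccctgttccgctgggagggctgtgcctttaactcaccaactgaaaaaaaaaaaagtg

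Postn, Thbs1 and Thbs2 act in wound repair and fibrosis and were not called over both sexes together. For Postn, encoding periostin, the log2 fold change was -0.10 ± 0.31 (edgeR adjusted p = 0.777), with 137 to 469.6 CPM in Klk6+ and 249 to 413 CPM in WT. Thbs1, encoding thrombospondin-1, had 0.42 ± 0.48 (edgeR adjusted p = 0.451), and Thbs2, encoding thrombospondin-2, -0.39 ± 0.21 (edgeR adjusted p = 0.121).

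Among versican and the hyaluronan synthases, 4 genes in all, Has2 and Has3 rose, none fell, and the median log2 fold change was 1.36, or 0.86 without Klk6+ 5. The synthases extrude hyaluronan through the plasma membrane, Has2 being the main one of fibroblasts and Has3 prominent in keratinocytes. Has3 had 12.6, 23.2, 55.6, 13.5 and 41.2 CPM in the Klk6+ mice and 2.37, 2.67, 1.97, 1.23 and 1.25 CPM in the WT mice. All Klk6+ mice were above all WT mice, with Klk6+ 3 and Klk6+ 5 highest, and the log2 fold change was 3.98 ± 0.47 (edgeR adjusted p = 2.93e-05). Has3 shares 352 exon bases with Chtf8 on the other strand, so reads there could belong to either gene.

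Has2 had 9.41, 13.4, 25.1, 7.25 and 16.8 CPM in the Klk6+ mice and 5.12, 8.47, 12.2, 3.78 and 4.18 CPM in the WT mice. The groups overlapped, since WT 2 and WT 3 lay above Klk6+ 4, the lowest Klk6+ mouse. The log2 fold change was 1.17 ± 0.35 (edgeR adjusted p = 0.0126), and without Klk6+ 3, the highest mouse, it was 0.93 (edgeR adjusted p = 0.0523). Has1 had 0.617 to 9.29 CPM in Klk6+ and 0.468 to 3.59 CPM in WT, with a log2 fold change of 1.56 ± 0.71 that was not called (edgeR adjusted p = 0.0691). It passed the threshold with DESeq2 (adjusted p = 0.0275) and in edgeR without Klk6+ 1 (0.0296) or Klk6+ 4 (0.0451).

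Vcan encodes versican, the large chondroitin sulfate proteoglycan that binds hyaluronan. It had 27.2, 25.99, 35.2, 50.4 and 74.3 CPM in the Klk6+ mice and 19.5, 79.1, 30.3, 39.5 and 32.3 CPM in the WT mice. The groups overlapped through most of their range, and WT 2 was the highest mouse of all. The log2 fold change was -0.01 ± 0.39 (edgeR adjusted p = 0.982), and it lay between -0.27 and 0.48 over the alternative fits, uncalled in each.

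**Figure D3:**
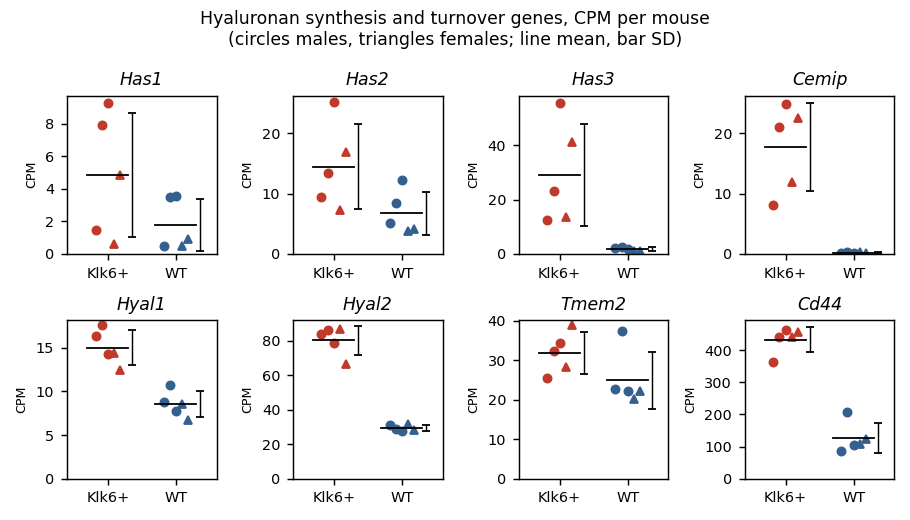
CPM (vertical axis, from 0) of the 3 hyaluronan synthase genes and of 5 genes for hyaluronan breakdown and binding in each mouse, Klk6+ left of WT, with circles for males, triangles for females, a line at the mean and a bar of 1 SD. Has3, Cemip, Hyal1, Hyal2 and Cd44 are higher in all 5 Klk6+ mice than in any WT mouse, and Has1, Has2 and Tmem2 overlap.

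The wider hyaluronan pathway moved in both directions. Of 18 tested genes for hyaluronan binding and turnover, 7 rose and 6 fell, with a median log2 fold change of 0.31. Among all genes tested 37.7% rose and 35.1% fell. The median of the 18 genes was -0.0202 without Klk6+ 5, 0.0333 without WT 4 and 0.0762 without WT 5, and 0.81 with limma on log2(FPKM + 0.1). Cemip, whose product starts the breakdown of hyaluronan in skin fibroblasts, had 8.08, 21.05, 24.8, 11.9 and 22.6 CPM in the Klk6+ mice and 0.230, 0.313, 0.150, 0.351 and 0.149 CPM in the WT mice. All Klk6+ mice were above all WT mice, in which it stayed below 1 CPM, and the log2 fold change was 6.18 ± 0.42 (edgeR adjusted p = 1.15e-06). Hyal2, a hyaluronidase anchored at the cell surface, rose by 1.44 ± 0.09 and Hmmr, a hyaluronan receptor also active in mitosis, by 2.05 ± 0.23 on the log2 scale (edgeR adjusted p = 7.63e-07 and 1.9e-05). Itih5, which encodes a heavy chain that attaches to hyaluronan, had a log2 fold change of -3.21 ± 0.34, Stab2, a scavenger receptor that clears it, -3.29 ± 0.51, and Layn, a hyaluronan receptor, -1.32 ± 0.25 (edgeR adjusted p = 1.46e-05, 0.000211 and 0.000721). Stab2 was low throughout, at 0.0309 to 0.314 CPM in Klk6+ and 1.23 to 3.55 CPM in WT. Cd44, the best known hyaluronan receptor, and Hyal1 and Tmem2, a lysosomal and a cell-surface hyaluronidase, were named after their values were seen, with log2 fold changes of 1.78, 0.81 and 0.36 (edgeR adjusted p = 4.53e-05, 0.000228 and 0.0995).

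All 5 fibroblast surface genes fell, with a median log2 fold change of -1.90. Pi16 marks adventitial fibroblasts in many mouse tissues. It had 49.7, 89.5, 94.2, 159.6 and 104 CPM in the Klk6+ mice and 317, 428, 449.5, 415 and 642 CPM in the WT mice. The Klk6+ mice were all below the lowest WT mouse, with Klk6+ 4 the highest of them, and the log2 fold change was -2.21 ± 0.23 (edgeR adjusted p = 1.24e-05). Pdgfra encodes the platelet-derived growth factor receptor that marks fibroblasts generally. Its CPM was 58.3, 68.5, 82.8, 104 and 172 in the Klk6+ mice and 74.6, 141, 144, 222 and 284 in the WT mice. The groups overlapped, with Klk6+ 5 above 3 WT mice and WT 1 below 3 Klk6+ mice. The log2 fold change was -0.81 ± 0.21 (edgeR adjusted p = 0.00513), and without sex in the model it was -0.83 with an adjusted p of 0.0644.

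Fap, which encodes a surface protease of activated fibroblasts, had 3.32, 3.17, 4.08, 4.82 and 8.09 CPM in the Klk6+ mice and 12.5, 13.2, 16.7, 42.2 and 48.1 CPM in the WT mice. The genotypes did not overlap, and in WT the 2 females were well above the 3 males. Its log2 fold change was -2.33 ± 0.21 (edgeR adjusted p = 5.03e-06). Dpp4, encoding the peptidase CD26 of the upper dermis and fascia, lies next to Fap on chromosome 2 with a gap of 88.71 kb, and its log2 fold change was -1.90 ± 0.31 (edgeR adjusted p = 0.000311). Pdgfrb, encoding the receptor that pericytes and fibroblasts share, had -0.76 ± 0.09 (edgeR adjusted p = 2.91e-05), and neither Dpp4 nor Pdgfrb overlapped between the genotypes.

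Both contractile genes fell by less than 2-fold, with a median log2 fold change of -0.50. Acta2 encodes smooth muscle actin, made by vessel walls, hair muscles and myofibroblasts. Its CPM was 105, 76.3, 84.6, 67.5 and 103 in the Klk6+ mice and 152, 173, 108, 119 and 112 in the WT mice. Klk6+ 1 and Klk6+ 5 came just under WT 3, the lowest WT mouse, and the log2 fold change was -0.60 ± 0.16 (edgeR adjusted p = 0.00725). Tagln encodes transgelin, an actin-binding protein of the same cells. It had 55.7, 40.3, 60.6, 42.7 and 66.6 CPM in the Klk6+ mice and 70.4, 81.3, 60.7, 70.4 and 68.6 CPM in the WT mice. The groups overlapped at Klk6+ 5 and WT 3, and its log2 fold change of -0.40 ± 0.15 (edgeR adjusted p = 0.0323) lost the call in 6 of the 10 fits without 1 mouse, with an adjusted p of up to 0.0906 without WT 2. Tagln shares 108 exon bases with Pcsk7 and 1241 with the antisense gene Gm48529.

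**Figure D4:**
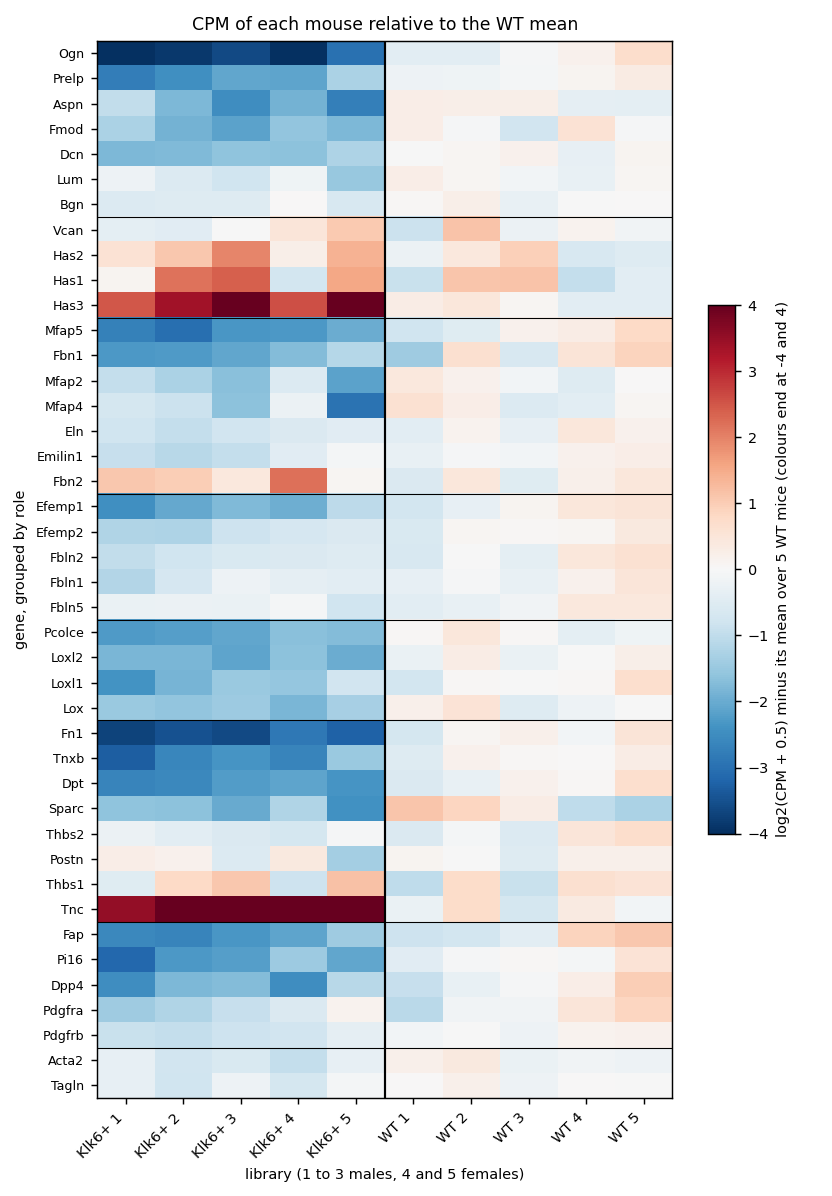
Log2(CPM + 0.5) of each of the 42 genes (rows, grouped by role) in each mouse (columns, Klk6+ 1 to 5 and then WT 1 to 5) minus the mean of the 5 WT mice, red above and blue below it, with colours ending at -4 and 4. The Klk6+ columns are blue in most rows and red in Tnc, Has3, Has2 and Fbn2, and Klk6+ 5 stands out as paler in many rows and darker blue in Aspn, Mfap2, Mfap4 and Sparc.

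The mice of a genotype differed from one another. How often each mouse was highest or lowest was counted in the 42 genes only. A trait of a whole library therefore cannot be told apart from one of these genes. Klk6+ 5 was the highest Klk6+ mouse in 22 of the 42 genes, among them Dcn, Ogn, Tnxb, Fbn1 and Loxl1. It was the lowest in 9, namely Lum, Bgn, Aspn, Sparc, Postn, Fbn2, Fbln5, Mfap2 and Mfap4. Klk6+ 1 was the lowest in 16. In WT skin, WT 1 was the lowest mouse in 23 genes and the highest in 5, which were Lum, Aspn, Sparc, Mfap2 and Mfap4, and WT 5 was the highest in 20. Lum, Aspn, Sparc, Mfap2 and Mfap4 were thus both the lowest of their genotype in Klk6+ 5 and the highest of their genotype in WT 1.

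Females and males were compared within the same model. Among the females 26 of the 42 genes were called lower, where 28.4% of all genes tested were, and 3 were called higher, where 31.2% were. Among the males 28 were called lower, against 31.0% of all genes tested, and 2 were called higher, against 33.4%. The median log2 fold change of the 42 genes was -0.90 in females and -1.10 in males. Its sign was the same in both sexes for 38 of them, where 89.5% of all genes tested shared theirs. Of the 42, 25 were called in both sexes, against 52.6% of all genes tested, 4 in females alone, against 7.0%, and 5 in males alone, against 11.8%.

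No gene of the 42, and 0.0% of all genes tested, was called for a difference between the sexes in the genotype effect by edgeR. At an unadjusted p below 0.05 there were 6 of the 42 and 1410 of all genes tested. These 6, named after their values were seen, were Sparc, Thbs2, Fbln2, Fbln5, Pcolce and Fap. Limma-voom called 0 genes, while DESeq2 called 263, among them Sparc and Pcolce. For Sparc the log2 fold change was -0.56 ± 0.39 in females and -2.54 ± 0.33 in males, a difference of 1.98 ± 0.50 (edgeR adjusted p = 0.271; DESeq2 difference 1.96, adjusted p = 0.00722). For Pcolce it was -1.43 ± 0.17 in females and -2.39 ± 0.14 in males, a difference of 0.96 ± 0.21 (edgeR adjusted p = 0.243; DESeq2 difference 0.95, adjusted p = 0.011). Fbln5 was called in females, at -0.83 ± 0.20 (edgeR adjusted p = 0.00614), and stood at 0.03 ± 0.16 in males (edgeR adjusted p = 0.896), a difference of -0.86 ± 0.26 (edgeR adjusted p = 0.335). Thbs2 was likewise called lower in females, at -0.94 ± 0.25 (edgeR adjusted p = 0.0112), and stood at -0.02 ± 0.21 in males (edgeR adjusted p = 0.932), a difference of -0.91 ± 0.33 (edgeR adjusted p = 0.423). Each sex rests on 2 or 3 mice of a genotype.

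Further pathway lists were composed from general knowledge. In those below, unlike the hyaluronan list above, more genes fell than rose. Of all genes tested, 35.1% fell and 37.7% rose. Of 23 further elastic fibre and microfibril genes, 16 fell and 1 rose, with a median log2 fold change of -1.62, or -0.84 with limma on log2(FPKM + 1). Pcolce2, another procollagen processing enhancer, had -3.10 ± 0.18, Ltbp4, a microfibril protein that holds latent TGF-beta, -2.11 ± 0.14, and Adamtsl4, which aids microfibril formation, -2.35 ± 0.18 (edgeR adjusted p = 5.25e-07, 1.13e-06 and 2.19e-06). Atp7a, a copper pump that supplies lysyl oxidase, was the gene that rose, by 1.27 ± 0.09 (edgeR adjusted p = 1.06e-06).

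Of 25 further matricellular and adhesive glycoproteins, 19 fell and 2 rose, with a median of -1.65. Thbs3, encoding thrombospondin-3, had a log2 fold change of -1.81 ± 0.13, Tgfbi, encoding a collagen-binding adhesion protein, -1.90 ± 0.13, and Abi3bp, encoding another matrix-binding protein, -1.59 ± 0.12 (edgeR adjusted p = 1.27e-06, 1.27e-06 and 1.6e-06). Matn4, encoding matrilin-4, rose by 2.64 ± 0.67 and Tnn, encoding tenascin-W, by 1.19 ± 0.40 (edgeR adjusted p = 0.0047 and 0.0204). Both overlapped between the genotypes. Matn4 had 0.484 CPM in Klk6+ 5, below every WT mouse (1.03 to 1.64 CPM), and 6.77 to 16.7 CPM in the other Klk6+ mice. Tnn in Klk6+ 3 and Klk6+ 5 (4.90 and 2.61 CPM) lay within the WT range of 2.27 to 5.66 CPM.

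Proteoglycan genes beyond the 42 were more mixed. Of 24 tested core proteins 12 fell and 3 rose, with a median of -0.54, or -0.83 without Klk6+ 4. Ecm2, a leucine-rich protein, had a log2 fold change of -2.80 ± 0.10, and the cell-surface heparan sulfate proteoglycans Sdc3 and Sdc2 had -2.68 ± 0.19 and -1.61 ± 0.11 (edgeR adjusted p = 4.62e-08, 1.35e-06 and 9.33e-07). The genes that rose were Sdc1, the syndecan of epithelia, at 1.65 ± 0.19, Srgn, the proteoglycan of blood-cell granules, at 1.48 ± 0.42, and Prg4, lubricin, at 3.39 ± 0.84 (edgeR adjusted p = 2.95e-05, 0.00905 and 0.00432). Of 24 genes that assemble chondroitin and dermatan sulfate chains, 11 fell and 4 rose, with a median of -0.36. Ust and Chst12, which add sulfate, had -1.62 ± 0.14 and -1.22 ± 0.10, and Ugp2, which makes the UDP-glucose precursor, -1.44 ± 0.13 (edgeR adjusted p = 3.91e-06, 2.41e-06 and 6.35e-06). The linker enzymes B3galt6 and B4galt7 and the polymerase Chsy1 had 0.74 ± 0.16, 0.49 ± 0.14 and 0.58 ± 0.18 (edgeR adjusted p = 0.00211, 0.00843 and 0.015).

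**Figure D5:**
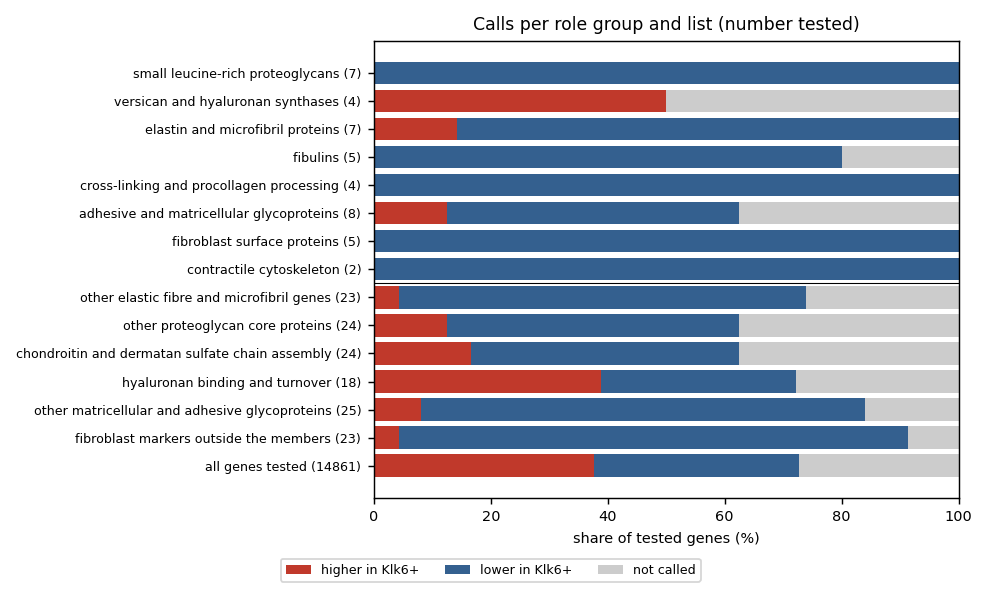
Share of tested genes (horizontal axis, percent) called higher in Klk6+ (red), lower in Klk6+ (blue) or not called (grey) in each role group, above the line, and in each further list and all genes tested, below it, with the number of genes tested in brackets. Small leucine-rich proteoglycans, cross-linking and surface genes are entirely blue, and of all 14861 genes tested 37.7% are red and 35.1% blue.

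Markers of fibroblasts outside the 42 genes moved in the same direction as most of them. Of 23 tested markers 20 fell and 1 rose, with a median log2 fold change of -1.07, and Tcf21 was listed at 0 in every mouse. Sfrp4, a secreted Wnt inhibitor, had -5.18 ± 0.36, Clec3b, encoding tetranectin, -3.57 ± 0.15, and Cd34 -2.44 ± 0.16 (edgeR adjusted p = 1.19e-06, 1.05e-07 and 1.04e-06). Crabp1, which encodes a retinoic acid-binding protein, rose by 0.97 ± 0.25 (edgeR adjusted p = 0.00532). The summed FPKM of the list was 1608 to 2481 in Klk6+ mice and 4271 to 8717 in WT mice, where the 3 males had 5547 to 8717 and the 2 females 4271 and 4293. The 3 genes of highest FPKM in the list, the collagen genes Col1a2, Col3a1 and Col1a1, made up 35.2 to 59.9% of the sum in Klk6+ and 35.3 to 78.2% in WT. The other 21 markers summed to 798 to 1042 FPKM in Klk6+ and 1897 to 2778 FPKM in WT, where the 3 males had 1897 to 2312 and the 2 females 2660 and 2778, so that WT males were above WT females in the collagen genes and below them in the sum of the others.

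Markers of other cells of skin also differed between the genotypes, and their part in the results above was not tested. Each list below was compared by its summed FPKM with a two-sided exact permutation test over every division of the 10 mice into 5 and 5, for which 0.00794 is the smallest p possible and 0.0102 its value adjusted over the 9 lists. Markers of skeletal muscle, a sheet of which lies beneath mouse skin, summed to 3027 to 5470.0 FPKM in Klk6+ and 35017 to 53778 FPKM in WT, and 12 of 12 fell. Adipocyte markers summed to 1266.5 to 2310.0 in Klk6+ and 3004.5 to 4438 in WT, with 9 of 10 called lower and 1 higher, and endothelial markers to 76.3 to 113 in Klk6+ and 127 to 176 in WT, with 9 of 10 called lower. Schwann cell markers summed to 64.5 to 141 in Klk6+ and 320.2 to 531 in WT, with 8 of 8 called lower. These 4 lists reached the smallest p.

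Smooth muscle and pericyte markers, which bear on Acta2, Tagln and Pdgfrb, summed to 406 to 627 FPKM in Klk6+ and 1802 to 2430.1 FPKM in WT (exact permutation p = 0.00794), with 11 of 15 called lower and 1 higher. Among them Tpm2 and Des, which skeletal muscle also makes and which are named after their values were seen, had log2 fold changes of -2.42 ± 0.15 and -2.24 ± 0.24 (edgeR adjusted p = 8.17e-07 and 1.39e-05). These 2 genes made up 74.1 to 81.7% of the sum in Klk6+ and 87.6 to 91.8% in WT, and the other 13 summed to 93.4 to 128 FPKM in Klk6+ and 198 to 234 FPKM in WT. Smtn and Notch3, chosen after their values were seen, had log2 fold changes of 0.07 ± 0.10 and 0.04 ± 0.19 and were not called (edgeR adjusted p = 0.522 and 0.853). Keratinocyte markers summed to 15138 to 19879 FPKM in Klk6+ and 4259.9 to 12137 FPKM in WT (exact permutation p = 0.00794), with 6 of 10 called higher and 2 lower. Krtdap and Krt14 made up 50.1 to 60.6% of that sum in Klk6+ and 28.7 to 32.2% in WT. The other 8 keratinocyte markers summed to 6014 to 9037 FPKM in Klk6+ and 2950 to 8614 FPKM in WT, so that without these 2 genes the genotypes overlapped. Neutrophil markers summed to 19596 to 32677 FPKM in Klk6+ and 65.3 to 107 FPKM in WT (exact permutation p = 0.00794), with 8 of 9 called higher. S100a8 and S100a9, which inflamed keratinocytes also make, made up 98.7 to 99.8% of that sum in Klk6+ and 70.7 to 85.7% in WT. The other 7 summed to 42.4 to 432 FPKM in Klk6+ and 11.5 to 22.8 FPKM in WT, and Mmp9 was the marker not called, at -0.33 ± 0.43 (edgeR adjusted p = 0.502). Macrophage markers summed to 437 to 1216 FPKM in Klk6+ and 1214 to 6320.3 FPKM in WT (exact permutation p = 0.0159, adjusted 0.0179), with 9 of 10 called lower and 1 higher. In WT the males had 1214 to 2114 FPKM and the females 5254 and 6320 FPKM, and WT 1 (1214.2) lay just below Klk6+ 5 (1216.1). Markers of the hair follicle dermal papilla and sheath summed to 28.9 to 64.2 FPKM in Klk6+ and 32.4 to 42.1 FPKM in WT (exact permutation p = 0.595), with 4 of 12 called lower and 1 higher. No marker of these 9 lists was at 0 in every mouse.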

How the data were processed

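For each mouse the authors deposited the read count of every gene symbol, as whole numbers without normalization, and its FPKM value, which the authors had scaled to transcript length and library size. Per the labels' protocols, RNA from frozen, pulverised skin was poly(A)-selected, made into libraries without strand information (TruSeq mRNA v2) and sequenced as single-end reads. The submitters' processing notes name TopHat2, SAMtools, HTSeq, Cufflinks 2.2.1 and the builds GRCm38 and mm10; for the role of each tool, the annotation, the strand setting and multi-mapping reads, details were not given in the sources used here.

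The counts were tested with edgeR 4.0.16 under R 4.3.3: filterByExpr on genotype (minimum count 10), TMM scaling, and quasi-likelihood F tests on genotype with sex as covariate (biological coefficient of variation 0.244). Effects within each sex and their difference came from a fit of 1 mean for each combination of genotype and sex. P-values were adjusted by Benjamini-Hochberg over the 14861 genes tested; log2 fold changes are given with their standard error. Alternatives used DESeq2 1.42.0 and limma 3.58.1. FPKM were used for levels, marker sums and an alternative fit. The p-values of the fits set a difference against the spread between these mice.

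The 42 genes, the lists and the naming rule were chosen with earlier results of these data known. All mice are shown for the 6 called genes of largest change in each direction and the 2 of highest FPKM in each role group, and up to 3 genes per direction, by smallest p, are named from each further list. Positions are from GENCODE M21 and promoter windows from RefSeq GRCm38.p6.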

Additional observations from a re-analysis of the deposited data

Results flagged for a closer look

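Within each genotype the 5 mice were checked for a single value far from the rest, in 114 groups of 5 (each of the 42 genes and each summed marker or pathway list, per genotype), by whether its gap to the nearest mouse was more than 0.71 of the whole range. For 5 independent values from a normal distribution, chance alone flags about 1 in 20 such groups. Of the 114 groups 2 were flagged, which is below that share. The groups come from the same mice and are not independent, so that share is a rough guide only. Bgn, encoding biglycan, had 388.02 CPM in Klk6+ 4, where the other Klk6+ mice had 246.2 to 267.91 CPM, a gap of 0.847 of the range. That value lay inside the WT range, and without Klk6+ 4 the log2 fold change of Bgn was -0.62 instead of -0.42. Pdgfrb, encoding a receptor of pericytes and fibroblasts, had 66.953 CPM in Klk6+ 5, where the other Klk6+ mice had 43.867 to 50.378 CPM, a gap of 0.718 of the range. It was still below all WT mice, and without Klk6+ 5 the log2 fold change was -0.89 instead of -0.76.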

How the results depend on the processing

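The genotype comparison was recomputed under 21 alternatives: DESeq2 size factors, upper quartile factors or total counts as scaling, no filter, scaling without muscle, keratin and Klk6 genes, DESeq2, limma-voom, genotype without sex, limma on log2(FPKM + 0.1), filtered or not, or log2(FPKM + 1), and 10 fits without 1 mouse. Between 29 and 32 of the 42 genes were called lower and between 3 and 5 higher. Fbn2 was tested in 19 of the 21 alternatives, since the FPKM filter removed it from filtered log2(FPKM + 0.1) and from log2(FPKM + 1). The call was the same in every alternative for 35 genes, 28 of the 32 that fell and Tnc and Has3 among the 4 that rose. It changed for Lum, Fbn2, Mfap4, Pdgfra, Tagln, Has1 and Has2, as given above, with no called gene changing sign; Fbn2 also lost its call with limma on unfiltered log2(FPKM + 0.1) (0.81, adjusted p = 0.0552). Has3 ranged from 1.92 with log2(FPKM + 1) to 4.25. The median log2 fold change of all genes tested shifted by -0.10 at most, with upper quartile factors. For hyaluronan binding and turnover the median of 0.31 ranged from -0.0202 (without Klk6+ 5) to 0.42 (without WT 2) over the fits that left out 1 mouse, so that its sign rests on 1 mouse, and from 0.16 (limma on unfiltered log2(FPKM + 0.1)) to 0.81 (filtered log2(FPKM + 0.1)) over the others, and the cause was not tested. The median of the further proteoglycan core proteins, -0.54, was -0.90 in edgeR without a filter, -0.99 on filtered log2(FPKM + 0.1) and -0.92 on log2(FPKM + 1). It was -0.41 on unfiltered log2(FPKM + 0.1). The filters change which genes enter this median. On log2(FPKM + 1), which understates changes of low genes, the median of the further elastic fibre genes was -0.84, that of versican and the synthases 0.72 and that of the neutrophil markers 2.94. For the difference between the sexes edgeR and limma-voom called 0 of the 42 genes and DESeq2 called 2. No paired analysis was possible because the replicate numbers only name mice and the labels pair none across the genotypes.

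Depth did not limit most of the genes, since 1 read was worth at most 0.0373 CPM. Fbn2 and Has1 were near or below 1 CPM in some mice, and Has3 was near it in WT 4 and WT 5. Values of genes with exons shared between genes hold that uncertainty.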
